A study of Homo sapiens with 4 samples.

Results

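A group of 10 genes of the contractile apparatus of smooth and cardiac muscle were followed in H1, a widely used human embryonic stem cell line, during stepwise differentiation toward blood. The 10 genes (ACTA2, TAGLN, CNN1, MYL9, MYLK, ACTC1, MYL7, TNNT2, TPM1 and TPM2) were chosen by name as muscle contractile genes. Their symbols were matched to Entrez gene IDs, and all 10 were found in all 4 libraries, out of 19390 gene IDs in the series. Each group is 1 library of wild type H1 cells: undifferentiated cells (day 0), cells after 2 days with activin A at 40 ng/ml and BMP4 at 50 ng/ml (day 2), and cells on the first (day 3) and second (day 4) day of the following step with VEGF at 40 ng/ml and bFGF at 50 ng/ml. A custom form of mTeSR1 medium was the base medium of both steps. With 1 library per day there is no measure of the spread between cultures and no test. Every interval below is a 95% interval and covers counting error only.

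In muscle, myosin filaments pull on actin filaments. In smooth muscle the pull starts when myosin light chain kinase phosphorylates the regulatory light chain of myosin, whereas in heart and skeletal muscle calcium acts through troponin and tropomyosin on the actin filament. Many smooth muscle and early cardiac genes are read under serum response factor (SRF), which binds a DNA element called the CArG box, with myocardin as a muscle-type partner. Actin, tropomyosin and myosin light chains also come in non-muscle forms that build the cytoskeleton of almost every cell. Smooth muscle genes such as ACTA2 and TAGLN are read in many mesenchymal and early mesodermal cells, so their RNA alone does not name a muscle cell.

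The CArG box (CC, then 6 bases that are each A or T, then GG) was looked for in the 250 bases before each transcript start in RefSeq (GRCh38.p14), where 8 of the 10 genes matched, with 12 starts. TAGLN and MYL9 did not match and were not searched. The CArG box was found before a start of 3 of the 8 genes (ACTC1, MYL7 and MYLK), beside 1.44% of all 27305 genes in the table. By start, it was found in 3 of 12 windows, beside 1.16% of all 35116. When 1 of the 6 central bases could be another base, a form chosen after the sequences were seen, 4 of 8 genes held it, ACTA2 being added, beside 8.60% of all genes. The 4 windows that held a strict or relaxed form are shown because ACTC1, MYL7 and ACTA2 had the largest ratios of highest to lowest day among the 10 genes, and MYLK because it held a strict box. Capitals mark every strict or relaxed CArG box, and both strands were searched. A match is a string of letters in a window and was not tested as a binding site.
ACTC1, first of 3 starts, chr15:34795550-34795799, minus strand: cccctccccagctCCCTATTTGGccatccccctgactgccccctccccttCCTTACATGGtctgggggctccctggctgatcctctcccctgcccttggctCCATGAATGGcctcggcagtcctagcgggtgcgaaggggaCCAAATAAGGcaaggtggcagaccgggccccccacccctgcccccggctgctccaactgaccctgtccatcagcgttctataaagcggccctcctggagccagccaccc
MYL7, chr7:44141333-44141582, minus strand: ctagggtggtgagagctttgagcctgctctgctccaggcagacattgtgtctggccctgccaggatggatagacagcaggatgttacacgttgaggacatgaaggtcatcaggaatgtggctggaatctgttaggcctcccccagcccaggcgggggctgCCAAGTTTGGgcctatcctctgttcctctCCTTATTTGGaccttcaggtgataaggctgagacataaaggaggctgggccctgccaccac
ACTA2, second of 2 starts, chr10:88952774-88953023, minus strand: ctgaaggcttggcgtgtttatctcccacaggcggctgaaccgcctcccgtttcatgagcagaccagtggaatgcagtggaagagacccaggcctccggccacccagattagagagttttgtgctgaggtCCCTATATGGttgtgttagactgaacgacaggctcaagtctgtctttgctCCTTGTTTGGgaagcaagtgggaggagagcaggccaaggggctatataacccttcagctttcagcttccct
MYLK, chr3:123620549-123620798, minus strand: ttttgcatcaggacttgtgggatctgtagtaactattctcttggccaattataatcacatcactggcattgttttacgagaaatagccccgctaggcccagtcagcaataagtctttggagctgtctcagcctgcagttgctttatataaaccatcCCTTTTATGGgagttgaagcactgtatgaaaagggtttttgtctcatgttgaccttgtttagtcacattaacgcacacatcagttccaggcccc
The strict boxes were CCAAATAAGG of ACTC1, which begins 109 bases before the start, CCTTATTTGG of MYL7, 61 bases before it, and CCTTTTATGG of MYLK, 94 bases before it. The windows of ACTC1 and ACTA2 held several relaxed boxes and the window of ACTA2 no strict one. Only 1 start of MYLK was matched, and which protein of the gene it serves was not examined. The 6-base MCAT element of the TEAD factors (CATTCC on either strand) stood in windows of 4 of the 8 genes, beside 14.3% of all genes.

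The libraries held 5.04 to 5.49 M expected counts over 17383 to 17664 listed genes, so 1 count was worth 0.182 to 0.196 CPM (counts scaled to the library total after TMM adjustment). The labelled cell states were checked on marker lists. Pluripotent cell markers summed to 10247, 3820, 2729 and 2079 CPM at days 0, 2, 3 and 4, and primitive streak markers to 20.2, 3090, 463 and 122 CPM. Endothelial markers summed to 261, 411, 1094 and 1588 CPM, with CLDN5 and ROBO4 unlisted until day 4. Blood cell markers summed to 28.1, 28.2, 25.5 and 53.3 CPM. The globin genes HBZ and HBG1 were unlisted at every day, and GATA1 and HBE1 until day 4. RHAG was 7.62-fold (3.80 to 17.3) and KLF1 4.82-fold (1.82 to 16.1) above its day 2 level at day 4. Over the 7 blood cell markers with at least 1 CPM, the median log2 difference between these days was 1.37, beside 0.02 over all genes. It ran from 0.447 to 1.78 over the settings tried. Of the 7, 4 were at least 2-fold higher by that difference, beside 8.18% of all genes. Downward it was 0 of 7, beside 7.6%.

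The 10 contractile genes followed separate courses. ACTC1, ACTA2, MYLK and TPM1 were highest at day 4, TAGLN, CNN1, MYL9 and MYL7 at day 2, and TNNT2 at day 0, while TPM2 stood at the same level at days 2 and 4. Together they took 0.0851, 0.235, 0.283 and 0.456% of all counts at days 0, 2, 3 and 4. Without ACTC1 their share was 0.0822, 0.176, 0.131 and 0.175%, no higher at day 4 than at day 2. In bulk RNA, fewer cells of a type and less RNA per cell cannot be told apart, so each level is a mean over all cells of the culture.

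**Figure D1:**
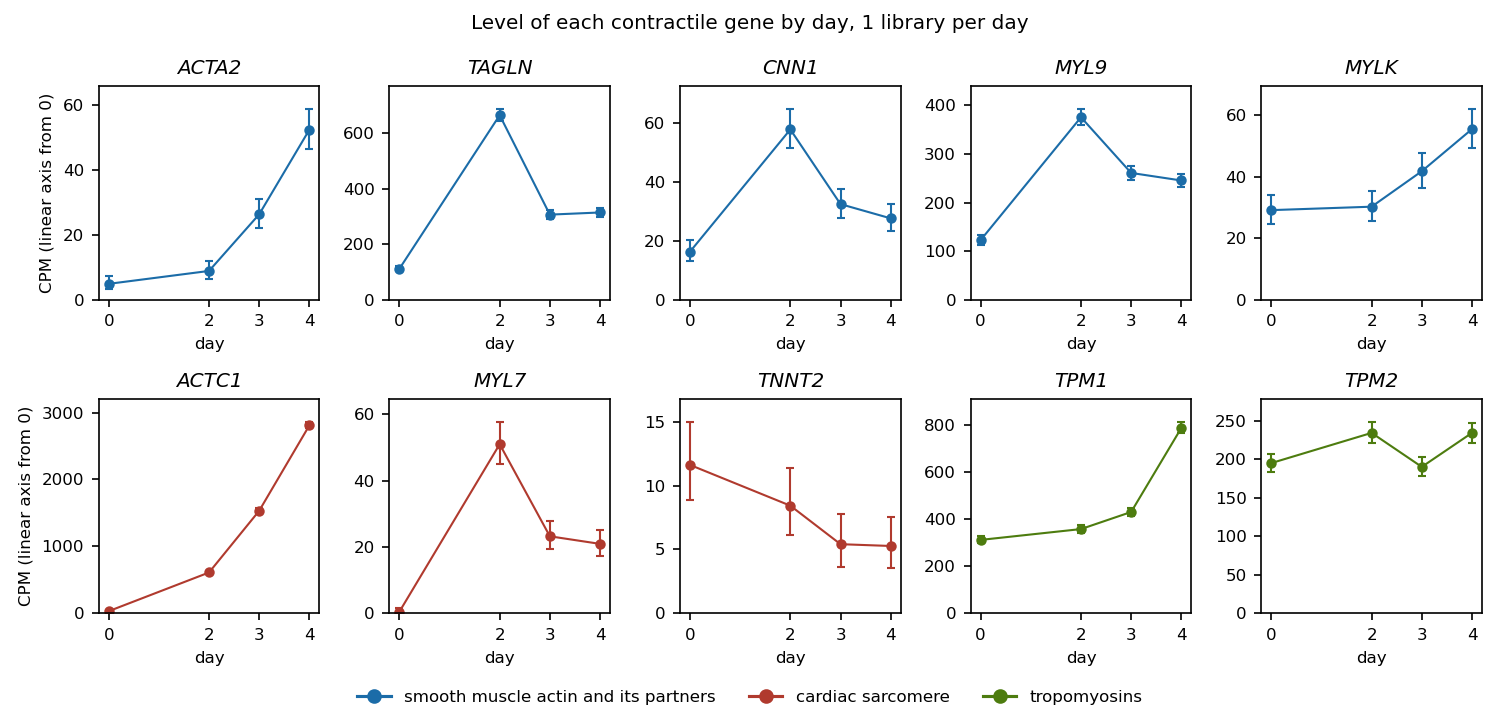
Level of each of the 10 contractile genes in CPM (vertical axis, linear from 0, scaled per gene) against the day of differentiation. Points are the 1 library of each day and bars the 95% Poisson interval, which covers counting error only; ACTC1 climbs to 2808 CPM at day 4, whereas TAGLN, CNN1, MYL9 and MYL7 are highest at day 2.

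ACTC1 (gene ID 70), the actin of the heart sarcomere, had the highest level of the 10 genes per length at days 3 and 4. It measured 28.7 CPM at day 0, 607 at day 2, 1531 at day 3 and 2808 at day 4. Each day was above the one before beyond counting error: 21.2-fold (17.9 to 25.1) at day 2 over day 0, 2.52-fold (2.42 to 2.63) at day 3 over day 2, and 1.83-fold (1.79 to 1.88) at day 4 over day 3. Day 4 over day 0 was 97.8-fold (83.2 to 116), which ranked 17 of 15652 genes ordered from the largest increase on the log2(CPM + 1) scale. ACTC1 then held 0.281% of all counts of its library. By FPKM, which is per length, it ranked 7307 among all genes at day 0 and 66 at day 4.

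MYL7 (gene ID 58498), the regulatory myosin light chain of the heart atrium, was near 0 in undifferentiated cells. It had 2 counts (0.388 CPM) at day 0, then 51.0, 23.2 and 20.9 CPM at days 2, 3 and 4. The ratio of day 2 to day 0 was 131-fold, with a wide interval of 36.0 to 1092 because of the 2 counts. From day 2 to day 3 it was 2.20-fold lower (1.77 to 2.75), and days 3 and 4 did not differ beyond counting error (0.901-fold, 0.692 to 1.17). It thus stayed above day 0 at day 4, by 53.9-fold (14.6 to 450), while ACTC1 went on upward and MYL7 did not.

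TNNT2 (gene ID 7139), the troponin T of heart muscle and a common label of cardiomyocytes, had the opposite sign. It measured 11.6, 8.44, 5.41 and 5.27 CPM at days 0, 2, 3 and 4, from 60, 43, 28 and 29 counts. None of the single steps differed beyond counting error, and day 4 was 2.21-fold below day 0 (1.39 to 3.57). Part of its sequence is shared with the neighbouring gene LAD1 on the same strand, which overlaps it in the GENCODE annotation: 34 of 1921 windows of 50 bases also occur in LAD1 transcripts. LAD1 measured 36.8, 9.02, 5.22 and 5.82 CPM, so it was lower at the same days, and its part in the TNNT2 values was not tested.

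ACTA2 (gene ID 59), the smooth muscle actin, was scarce until the VEGF and bFGF step. It measured 4.85, 8.83, 26.3 and 52.3 CPM at days 0, 2, 3 and 4. Day 2 was 1.82-fold above day 0 (1.09 to 3.10), day 3 was 2.98-fold above day 2 (2.11 to 4.27) and day 4 was 1.99-fold above day 3 (1.62 to 2.46). Day 4 over day 2 was 5.93-fold (4.32 to 8.31), and over day 0 it was 10.8-fold (7.17 to 17.0). ACTC1 was nevertheless the more abundant of these 2 muscle actins at every day, with a ratio of FPKM of 2.33 (1.52 to 3.72) at day 0, 27.8 (20.7 to 38.2) at day 2, 27.0 (22.8 to 32.3) at day 3 and 22.3 (19.8 to 25.1) at day 4. Of 1747 windows of 25 bases in ACTA2 transcripts, 73 (4.18%) occur in another gene, 33 of them in ACTC1, and none of its windows of 50 bases does. The read length is not given in the sources used here. ACTA2 also overlaps STAMBPL1 and FAS on the opposite strand, and no use of strand in counting is stated. FAS measured 5.43, 6.47, 11.8 and 11.5 CPM and STAMBPL1 7.18, 2.35, 2.51 and 3.63 CPM.

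TAGLN, CNN1 and MYL9, whose proteins bind smooth muscle actin or form part of its myosin, shared a course with a peak at day 2. TAGLN (gene ID 6876), which encodes the actin-bundling protein SM22, measured 111, 665, 306 and 314 CPM at days 0, 2, 3 and 4. It was 6.004-fold higher (5.49 to 6.57) at day 2 than at day 0 and 2.17-fold lower (2.04 to 2.31) at day 3 than at day 2. CNN1 (gene ID 1264), the basic calponin that slows the myosin ATPase, measured 16.3, 57.9, 32.5 and 27.6 CPM. It was 3.55-fold higher (2.78 to 4.58) at day 2 and then 1.78-fold lower (1.47 to 2.17) at day 3. MYL9 (gene ID 10398), the regulatory light chain that the kinase phosphorylates, measured 123, 376, 261 and 245 CPM. It was 3.06-fold higher (2.80 to 3.36) at day 2 and 1.44-fold lower (1.34 to 1.55) at day 3. None of the 3 differed between days 3 and 4 beyond counting error, and all 3 stayed above day 0 at day 4, by 2.84-fold (2.58 to 3.12) for TAGLN, 1.70-fold (1.29 to 2.24) for CNN1 and 2.00-fold (1.82 to 2.20) for MYL9. TAGLN also overlaps PCSK7 on the opposite strand, which lay between 40.1 and 53.7 CPM at all days.

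MYLK (gene ID 4638), the kinase that starts smooth muscle contraction, did not share that peak. It measured 29.1, 30.2, 41.7 and 55.4 CPM at days 0, 2, 3 and 4, without a difference beyond counting error between days 0 and 2 (1.04-fold, 0.824 to 1.31). Day 4 was 1.83-fold above day 2 (1.51 to 2.24). The deposited gene length, which is not whole and so appears to be averaged over transcripts, was 5309, 7640, 7770 and 5794 bp. Because the length changed, the FPKM went a different way, 5.57, 3.84, 5.30 and 9.50, so that day 2 was 0.689 of day 0 per length. The gene is known to give a long kinase and a short protein, telokin, from separate starts, and the values per transcript were not analysed here. Whether the start with the CArG box is that of the kinase or of telokin was not examined. Of its windows of 50 bases, 0.985% occur in other genes, most of them in the pseudogene MYLKP1. MYLK-AS1, on the opposite strand, stayed at or below 1.45 CPM.

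The tropomyosins, which lie along the actin filament, were abundant from the start. TPM1 (gene ID 7168) measured 312, 358, 431 and 789 CPM at days 0, 2, 3 and 4, and most of its increase fell between days 3 and 4, at 1.83-fold (1.74 to 1.93). TPM2 (gene ID 7169) measured 195, 235, 190 and 235 CPM, within a 1.23-fold range. TPM1 and TPM2 thus stood close per length at day 2, with an FPKM ratio of 1.07 (0.992 to 1.15), and apart at day 4, at 2.34 (2.20 to 2.49). Both genes also serve the non-muscle cytoskeleton, and their splice forms were not analysed here.

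Day 2 against day 0 shows what differed after activin A and BMP4. A gene was called where log2(CPM + 1) differed by at least 2 (4-fold) or at least 1 (2-fold), with at least 1 CPM in either library. Of the 10 contractile genes, 3 passed the 4-fold line upward (ACTC1, MYL7 and TAGLN), beside 4.63% of 15379 genes, and 5 the 2-fold line, with CNN1 and MYL9, beside 12.9%. Downward, 0 of 10 passed either line, beside 1.93% (4-fold) and 8.81% (2-fold) of all genes. The median log2 difference was 1.18 over the 10 genes and 0.00 over all genes. The 5 remaining genes (ACTA2, MYLK, TNNT2, TPM1 and TPM2) differed by less than 2-fold on that scale.

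**Figure D2:**
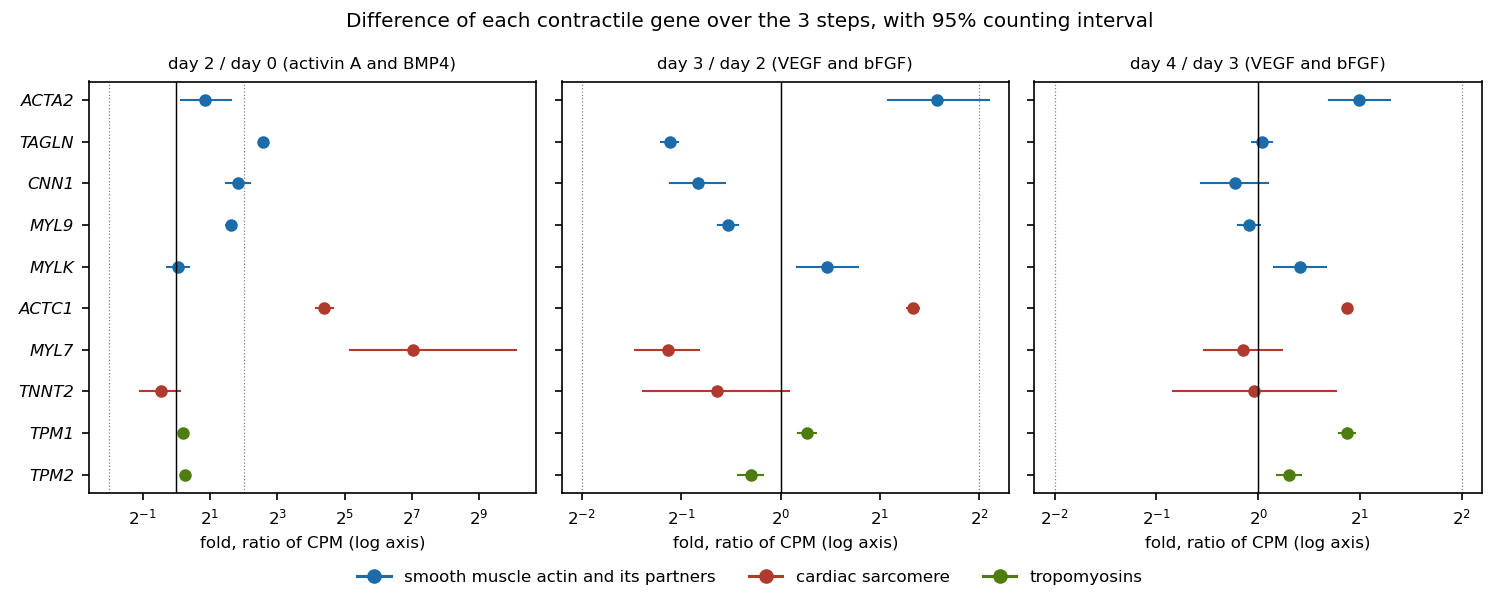
Ratio of CPM between neighbouring days for each contractile gene (horizontal log axis, a separate range in each panel), with the 95% counting interval as a line; the solid line marks no difference and dotted lines a 4-fold ratio. MYL7 and ACTC1 lie farthest to the right at day 2, and at day 3 ACTA2 and ACTC1 are to the right of the line while TAGLN, CNN1, MYL9 and MYL7 are to its left.

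After the change to VEGF and bFGF the genes parted. At day 3 against day 2, ACTA2 and ACTC1 passed the 2-fold line upward, 2 of 10 beside 5.82% of 15286 genes, and TAGLN and MYL7 downward, 2 of 10 beside 3.51%. The 4-fold lines were passed by 0 of 10, beside 1.32% of all genes upward and 0.406% downward. At day 4 against day 3 0 of 10 passed 2-fold in either direction, beside 2.96% of all genes upward and 4.25% downward, nor 4-fold, beside 0.377% and 0.228%. ACTA2 lay just under that line, at a log2 difference of 0.97, as did ACTC1 at 0.88 and TPM1 at 0.87. Over both days, at day 4 against day 2, ACTA2 and ACTC1 passed the 4-fold line upward, 2 of 10 beside 2.32% of 15406 genes, and 0 downward beside 1.4%. The 2-fold line was passed upward by 3, with TPM1, beside 8.18%, and downward by TAGLN, CNN1 and MYL7, 3 of 10 beside 7.6%. The median was -0.29 over the 10 genes and 0.02 over all genes.

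Across the whole course, day 4 against day 0, ACTC1, MYL7 and ACTA2 passed the 4-fold line upward, 3 of 10 beside 6.27% of 15652 genes, and 0 downward beside 3.44%. With TAGLN and TPM1, 5 passed the 2-fold line upward, beside 16.1%, and TNNT2 alone downward, beside 11.9%. TNNT2 passed that line at a log2 difference of -1.01, and MYL9 missed it upward at 0.996. The 5 comparisons share libraries and are not independent of each other.

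Ordered by FPKM within a library, TPM1 (188), TPM2 (165), MYL9 (106) and TAGLN (97.0) led at day 0, and MYL9 and TAGLN did not differ beyond counting error (ratio 1.10, 0.978 to 1.23). CNN1, TNNT2 and ACTC1 followed at 10.5, 10.3 and 7.90 FPKM. CNN1 and TNNT2 did not differ beyond counting error, nor did TNNT2 and ACTC1. Last came MYLK, ACTA2 and MYL7, at 5.57, 3.39 and 0.67. At day 2 TAGLN (557) and MYL9 (312) led, followed by TPM1 (204) and TPM2 (191), which did not differ, ACTC1 (161), MYL7 (84.6) and CNN1 (35.8). At day 4 ACTC1 (758) and TPM1 (455) led, before TAGLN (271), then MYL9 (210) and TPM2 (194), which did not differ. MYL7 (35.4) and ACTA2 (34.0) also stood level at day 4, with a ratio of 1.04 (0.830 to 1.29), and TNNT2 was last, at 4.77. TNNT2 thus went from the sixth place at day 0 to the last at days 3 and 4, where at day 3 MYLK (5.30) and TNNT2 (4.65) did not differ.

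Within their protein families the 10 genes moved to unequal degrees. ACTB and ACTG1, the actins of the cytoskeleton, made up most of the summed actin FPKM at every day, ACTB with 72.5% at day 0 and 63.9% at day 4. ACTC1 took 0.179% of it at day 0, 2.89% at day 2, 8.85% at day 3 and 14.2% at day 4, whereas ACTA2 never passed 0.637%. The skeletal actin ACTA1 was highest at day 2, at 27.2, 65.1, 8.50 and 3.27 CPM, so 2.40-fold higher (1.96 to 2.94) at day 2 and 19.9-fold lower (12.4 to 34.0) at day 4 than at day 2. Among regulatory myosin light chains MYL9 took 29.5, 39.2, 36.2 and 28.7% and MYL7 0.186, 10.6, 6.42 and 4.84% at days 0, 2, 3 and 4, the rest being mostly the non-muscle MYL12A and MYL12B. TAGLN took 20.7% of its family of transgelins and calponins at day 0 and 44.8% at day 2, while CNN2 went from 45.2 to 13.1% and TAGLN2 from 8.06 to 23.4%. TPM1 took 32.6% of tropomyosin FPKM at day 4 against 21.0% at day 0, TPM4 had the largest share at every day (33.6% at day 4), and TPM3 went from 26.5 to 19.9%. Of troponin T, the slow skeletal form TNNT1 held 76.7 to 86.0%, so TNNT2 was the minor form at every day. MYLK held 64.2, 49.9, 51.6 and 66.3% of its kinase family and MYLK3, the cardiac kinase, 29.8, 45.6, 41.9 and 30.1%. The deposited length of MYLK changed between days. By counts, not divided by length, MYLK held 56.8, 50.2, 52.2 and 59.9% and MYLK3 39.8, 47.9, 43.5 and 37.7%.

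**Figure D3:**
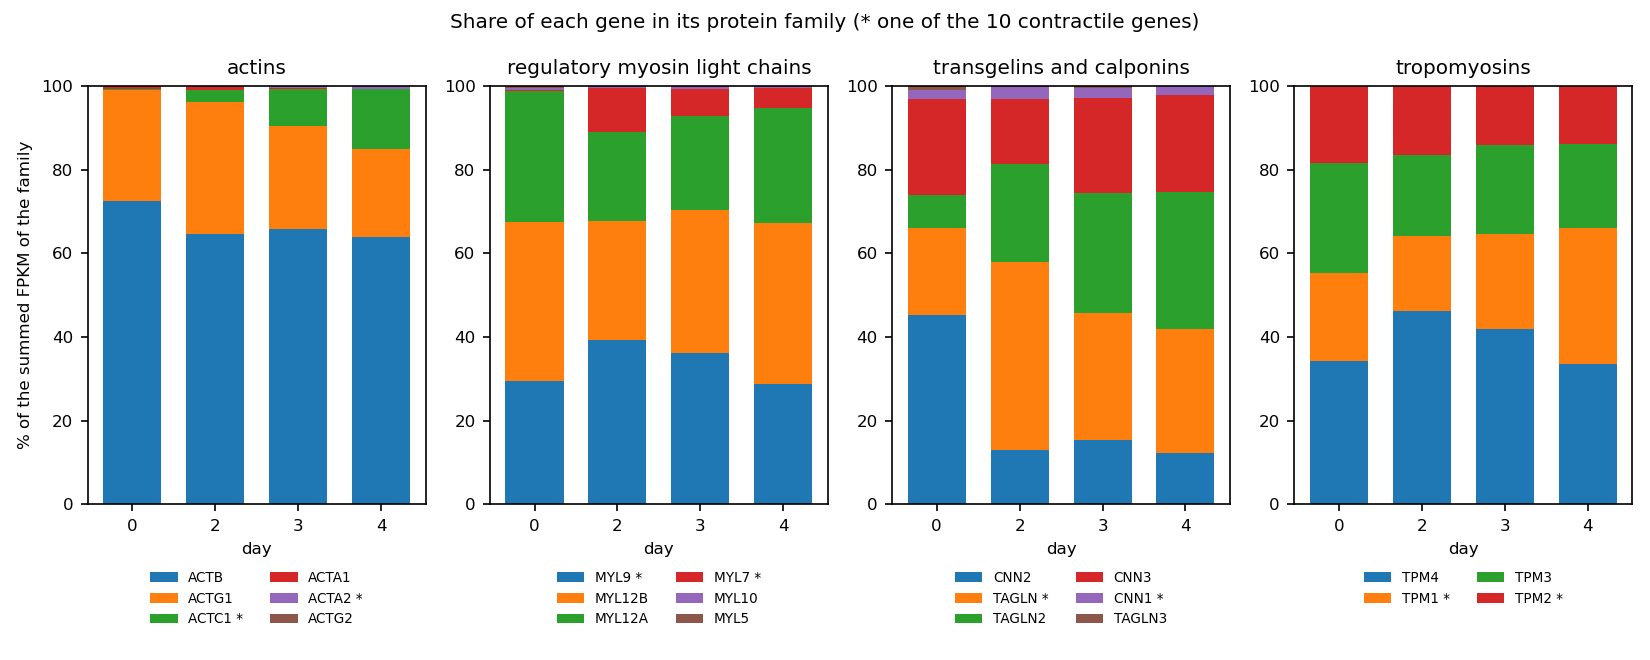
Share of each gene in the summed FPKM of its protein family (vertical axis, %) by day, for actins, regulatory myosin light chains, transgelins with calponins, and tropomyosins; stars mark the 10 contractile genes. ACTC1 grows from 0.179% to 14.2% of actin FPKM, and TAGLN is widest at day 2, at 44.8% of its family.

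Other genes grouped with the sarcomere of heart and striated muscle also differed among themselves. The group includes genes outside the sarcomere, such as NPPB and RYR2. Of its 27 genes, 15 had at least 1 CPM at day 0 or 2. Of these, 7 passed the 2-fold line upward at day 2 and 2 downward, beside 12.9% and 8.81% of all genes, with a median of 0.91 that ran from 0.22 without the minimum to 1.97 at a minimum of 5 CPM. The calcium-binding troponin gene TNNC1 measured 1.55, 11.97, 32.1 and 38.2 CPM, and the atrial light chain gene MYL4 0.194, 9.42, 21.1 and 33.1 CPM. The natriuretic peptide gene NPPB went from 0 counts to 15.9 CPM at day 2, a ratio of at least 27.3 against a floor of 3 counts, and the nebulette gene NEBL from 16.5 to 70.6 CPM. At day 4 against day 2, 6 of 18 passed the line upward and 4 downward, beside 8.18% and 7.6% of all genes, with a median of -0.17, which turned to 0.15 without the minimum of 1 CPM. RYR2, the calcium release channel, was 7.06-fold lower (3.72 to 14.8), LDB3 8.99-fold (2.74 to 46.5) and NEBL 3.50-fold (2.82 to 4.37), while MYL4 was 3.51-fold higher (2.54 to 4.93). Several genes of the list stayed near 0. The heart myosin heavy chain genes MYH6 and MYH7 reached 1.45 and 0.363 CPM at day 4, and MYL2, MYBPC3, CSRP3 and MYPN were unlisted at every day. These genes were named after their values were seen.

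Other genes grouped with smooth muscle contraction, not all of them contractile, were mixed. Of 16, 12 had at least 1 CPM at day 0 or 2, with 4 past the 2-fold line upward and 3 downward at day 2, beside 12.9% and 8.81% of all genes, and a median of 0.65 (0.20 to 1.02 over the settings tried). CALD1, the actin-binding caldesmon, measured 409, 1218, 826 and 799 CPM and CSRP1 20.4, 56.1, 70.7 and 92.5 CPM, whereas SYNPO2 was 10.03-fold lower (4.62 to 25.8) at day 2. At day 4 against day 2, 4 of 13 passed it upward and 1 downward, beside 8.18% and 7.6% of all genes, with a median of 0.44. ITGA8 was 11.1-fold higher (4.07 to 42.5), HSPB6 8.18-fold (3.52 to 23.3) and DES, the muscle intermediate filament, 4.48-fold (1.83 to 13.2). The 1 downward was CASQ1, a calcium store gene rather than a contractile one, which from 7 counts was at least 2.52-fold lower. MYH11, the smooth muscle myosin and the strictest marker of the mature cell, lay between 1.35 and 2.72 CPM at all days. It was named after its values were seen.

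**Figure D4:**
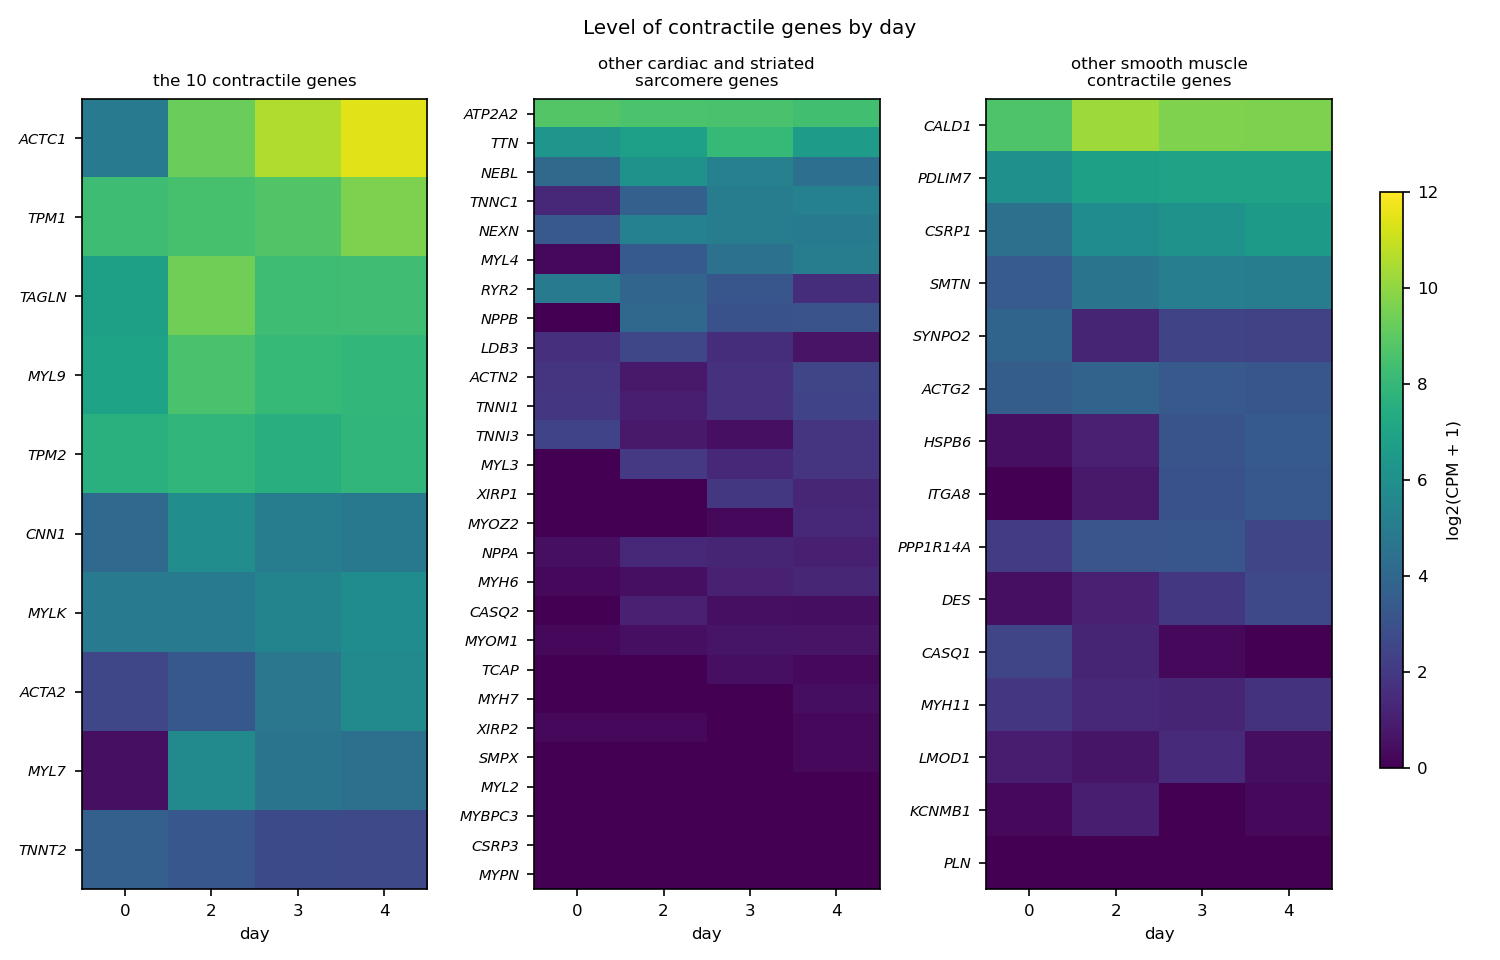
Colour shows log2(CPM + 1) of the 10 contractile genes, 27 genes grouped with cardiac and striated sarcomeres and others grouped with smooth muscle. Rows are genes, ordered by their highest value, and columns are days 0, 2, 3 and 4. Unlisted genes are drawn at 0. ACTC1 is the brightest row at day 4, whereas many sarcomere genes, MYL2 and MYBPC3 among them, stay dark at every day.

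Among 22 non-muscle actomyosin genes, 2 passed the 2-fold line upward at day 2, TAGLN2 at 8.05-fold (7.08 to 9.19) and the adhesion protein TLN1 at 2.08-fold (1.92 to 2.25), and 0 downward, beside 12.9% and 8.81% of all genes. The median was 0.29. MYH9 lay just under the line, at 2.00-fold (1.92 to 2.08). At day 4 against day 2 0 passed it upward (8.18% of all genes) and MYH14 alone downward (7.6%), at 2.82-fold (1.98 to 4.09), with a median of -0.03. Genes that control light chain phosphorylation, the step in which MYLK and MYL9 meet, had a median of 0.35 at day 2. Among its 18 genes RHOB was 16.6-fold (12.9 to 21.7) and RHOC 3.46-fold higher (2.95 to 4.08), 2 past the line beside 12.9% of all genes. At day 4 against day 2 0 of 17 passed the line upward, beside 8.18% of all genes, and ARHGAP42 alone downward, beside 7.6%, at 2.20-fold (1.83 to 2.66).

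Of 27 transcription factors and SRF partners of muscle, 24 had at least 1 CPM at day 0 or 2. At day 2, 14 passed the 2-fold line upward, 11 of them the 4-fold line, and 0 downward, beside 12.9%, 4.63% and 8.81% of all genes. Their median was 1.57 (0.85 to 2.44 over the settings tried). GATA6 was 246-fold higher (95.9 to 906), HAND1 166-fold (87.0 to 363) and GATA4 188-fold (64.0 to 915). At day 4 against day 2, 7 of 26 passed the line upward and 2 downward, beside 8.18% and 7.6% of all genes, with PRRX1 102-fold higher (17.9 to 4062) and HAND2 13.2-fold (8.50 to 21.7). The cardiac factor genes stood in unequal places: HAND2 and NKX2-5 went from 0 CPM at day 0 to 54.5 and 18.2 CPM at day 4, while TBX5 never passed 1 count. Of the SRF pair, SRF measured 87.7, 110, 83.5 and 77.4 CPM, and MYOCD, the gene of myocardin, 9.50, 81.4, 42.1 and 32.2 CPM. MYOCD was highest at day 2, as were SRF, TAGLN, CNN1, MYL9 and MYL7, whereas ACTC1, ACTA2, MYLK and TPM1 were highest at day 4. The part of MYOCD in any of these levels was not tested. NKX2-5, TBX5, SRF and MYOCD were named after their values were seen.

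Markers of other cells moved over the same days. Of 17 mural and fibroblast markers, 16 were listed at days 0, 2 and 3 and 17 at day 4, and their summed level was 1161, 2009, 3709 and 5150 CPM. Of 16 with at least 1 CPM, 7 passed the 2-fold line upward and 1 downward at day 4 against day 2, beside 8.18% and 7.6% of all genes, and, at day 4 against day 3, 4 of 16 upward and 2 downward, beside 2.96% and 4.25%. The pericyte gene RGS5 measured 82.2, 274, 1214 and 1666 CPM and the collagen gene COL3A1 3.10, 7.45, 66.9 and 618 CPM, whereas the matrix gene POSTN measured 5.82, 342, 215 and 76.5 CPM. DCN was unlisted until day 4. Skeletal muscle markers summed to 43.1, 70.2, 18.0 and 9.45 CPM, led by ACTA1 at days 0 and 2, with MYOD1, MYF5 and MYF6 unlisted at every day. The part of these cell types in the contractile gene levels was not tested.

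The genes whose course was most like that of each contractile gene were found by the distance between 4 values of log2(CPM + 1), centred per gene, among 11565 genes of at least 10 CPM in some library. For MYL9 the nearest was CALD1, at a distance of 0.0512, and for CNN1 it was TES, at 0.0397, whose protein binds the actin cytoskeleton. For TAGLN the nearest were LAYN (0.154), ANXA2R-OT1 and KCNG1. For ACTC1 they were HOXB9 (0.318), CRHBP (0.342) and CD34 (0.377), all further away than the nearest genes of MYL9. For ACTA2 they were AFAP1L2 (0.170), ARHGEF3 and EXOC3L1, and for MYL7 CLDN11 (0.360), WNT5A and SERPINE2. For TPM1 the nearest were DIPK1B (0.0970), CKB and MAPK12, for TPM2 POT1 (0.0321), RRP7A and MTFR1, for MYLK KATNBL1 (0.0251), WASH7P and MMP19, and for TNNT2 UCHL1 (0.0863), AEBP2 and TOMM40L. The 4 values give many genes a like course, so these names are a description of 4 libraries.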

How the data were processed

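Per the labels' protocols, total RNA was taken with Trizol and 2 ug went into an Illumina TruSeq RNA library. The submitters' processing notes name BWA, Bowtie, RSEM and hg19. Neither versions nor roles were given in the sources used here. The series' design text names further tools. The deposited expected counts (estimated counts, 69.4 to 70.1% exactly whole as written) were rounded and used for all CPM and folds. The deposited FPKM, per the file headers, served comparisons between genes, and the deposited length in base pairs was read as a value of other kind, for MYLK only. Genes without a value were taken as 0, and names came from RefSeq (GRCh38.p14; 19273 of 19390 IDs matched).

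CPM used TMM factors (edgeR 4.0.16, R 4.3.3), median-of-ratios factors came from DESeq2 1.42.0, and the rest was done in Python 3.11.15 (scipy 1.17.1, pandas 2.3.3, matplotlib 3.10.9, numpy 2.4.6). Folds are ratios of CPM with exact conditional binomial intervals, CPM have exact Poisson intervals, and a gene at 0 was set to a floor of 3 counts in that library for a bound. Size rules took the place of tests, and the code was tested on simulated data. Alternatives were pseudocounts of 0.1 and 5, other scaling, other minimums and FPKM. The members and lists were chosen with earlier results of these data known. Named genes were the 10 members, their 3 nearest courses, from each list at most 4 genes, those that differed most at day 2 against 0 and at day 4 against 2, and family members with at least 5% of their family. Genes that overlap a member and markers at 0 are named besides, and others are said to be named after their values were seen. Some list members counted in the totals are not reported here by name or drawn.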

Additional observations from a re-analysis of the deposited data

How the results depend on the processing

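No paired analysis was possible because each day is 1 library. The number of contractile genes past a line stayed within 1.5 times its value in 136 of 140 recomputed counts. With a pseudocount of 5, 1 gene in place of 2 was at least 2-fold lower at day 3 against day 2, and 0 in place of 1 at day 4 against day 0. On FPKM, 0 in place of 1 was at least 2-fold lower at day 4 against day 0, and 1 in place of 0 at least 2-fold higher at day 4 against day 3. The 50 differences of single contractile genes moved beyond their counting interval in 3 of 350 recomputations: MYLK on FPKM, at -0.44 for day 2 against 0 and 0.74 for day 4 against 3, and ACTA2 with a pseudocount of 5, at 2.54 for day 4 against 0. Of 40 family shares, 27 moved beyond it when counts were not divided by length, with ACTC1 at 24.7% of actins at day 4. The nearest genes in course kept at least 2 of 3 names for 5 of 9 genes at a minimum of 50 CPM, and TNNT2 did not reach that minimum. List medians moved by over 0.25 in 82 of 445 recomputations.

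Counts over all genes, the background of each comparison, moved most with the pseudocount. At least 4-fold higher and lower, with a pseudocount of 0.1, were 1087 and 676 genes at day 2 against 0, 484 and 227 at day 3 against 2, 243 and 228 at day 4 against 3, 704 and 470 at day 4 against 2, and 1492 and 930 at day 4 against 0. With a pseudocount of 5 they were, in that order, 362 and 112, 55 and 20, 11 and 7, 142 and 82, and 504 and 223, in place of 712 and 297, 202 and 62, 58 and 35, 357 and 215, and 981 and 538. At least 2-fold higher and lower, with a pseudocount of 5, were 1231 and 633, 374 and 192, 127 and 206, 607 and 609, and 1560 and 1056, in place of 1978 and 1355, 889 and 536, 455 and 653, 1260 and 1171, and 2514 and 1860. With a pseudocount of 0.1, 847 were 2-fold lower at day 3 against 2, and 751 higher and 1062 lower at day 4 against 3. At a minimum of 5 CPM, 352 were 2-fold lower at day 3 against 2 and 261 higher at day 4 against 3. On FPKM, 83 were 4-fold lower and 412 2-fold lower at day 4 against 3. The cause was not tested for the last 3 settings.

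With 1 library per day, variation between cultures is unknown, and at this depth genes of a few counts, such as MYL7 at day 0, have folds known only within wide intervals.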
